A study of Drosophila melanogaster with 3 samples.

Results

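The regions described here are the weak Cycle ChIP-seq peaks that lay inside protein-coding sequence. They were taken from the pooled list of peaks and background regions on dm6 by 2 criteria. The peak overlapped no peak of the authors' list cut at their threshold on the irreproducible discovery rate (IDR), and its summit lay in a coding exon of a protein-coding gene, in any annotated protein-coding transcript. Of 29484 pooled peaks, 1043 met both criteria and are called members below, which is 3.54% (95% interval 3.33 to 3.75%). They made up 4.94% (4.66 to 5.25%) of the 21094 peaks that overlapped no thresholded peak. The remaining 20051 are called other sub-threshold peaks. For 856 members (82.1%) the summit was coding in every transcript of the gene that spans it and lay in no exon of another gene. The thresholded list held 7227 peaks, and 1163 further pooled peaks overlapped one of these, among them 27 with a coding summit that are therefore not members. Intervals on shares are exact binomial (Clopper-Pearson) intervals, and those on rates per Mb are exact Poisson intervals. They cover counting error only and take each peak as a separate draw, while 34 pairs of neighbouring members were at most 500 bp apart.

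The chromatin came from whole animals at the white prepupa stage, males and females together, of a transgenic D. melanogaster line that stably expresses Cycle with GFP fused to its C terminus. It was precipitated with an antibody against GFP. All 3 samples are biological replicates of this 1 group, so no second genotype, stage or treatment was compared. Whole animals mix all tissues, and the labels do not say which tissues express the fusion or whether untagged Cycle was also present. Read depth is unknown, because the lists hold no read counts.

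Cycle is a bHLH-PAS transcription factor that pairs with Clock and drives the circadian genes of the fly from the E-box CACGTG. Such sites are best known from promoters, whereas coding exons are read mainly as protein sequence. At the white prepupa stage a pulse of the steroid hormone ecdysone is switching on a cascade of early transcription factors and late effector genes. IDR keeps peaks whose ranks recur between replicates, and the peaks below its threshold can hold both weak binding and background.

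The windows below show what the members look like as sequence. Each runs from 100 bp before to 100 bp after the summit, 201 bp in all, on the coding strand of its gene in dm6. The first pair are members with the Clock and Cycle E-box, which is in capitals. They lie in the last coding exon of larp, which encodes an RNA-binding protein of the La-related family (chr3R:28320647-28320847, minus strand), and near the start of the single coding exon of Lsp2, a larval serum storage protein (chr3L:12129428-12129628, plus strand).
larp: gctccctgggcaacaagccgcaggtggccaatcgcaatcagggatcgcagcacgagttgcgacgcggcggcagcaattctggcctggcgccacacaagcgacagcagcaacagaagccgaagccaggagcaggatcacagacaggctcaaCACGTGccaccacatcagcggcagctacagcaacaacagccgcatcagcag
Lsp2: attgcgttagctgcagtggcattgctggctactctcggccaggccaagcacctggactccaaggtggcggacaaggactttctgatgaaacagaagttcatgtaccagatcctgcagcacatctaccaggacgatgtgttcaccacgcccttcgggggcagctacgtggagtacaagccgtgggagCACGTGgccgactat

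The second pair hold the trinucleotide repeat known in flies as opa, which most often codes for glutamine, with every CAGCAGCAG in capitals. They lie in corto, which encodes a chromatin protein that interacts with Polycomb and trithorax group proteins (chr3R:5084979-5085179, minus strand), and in btsz, which encodes the synaptotagmin-like protein Bitesize (chr3R:14819911-14820111, minus strand).
corto: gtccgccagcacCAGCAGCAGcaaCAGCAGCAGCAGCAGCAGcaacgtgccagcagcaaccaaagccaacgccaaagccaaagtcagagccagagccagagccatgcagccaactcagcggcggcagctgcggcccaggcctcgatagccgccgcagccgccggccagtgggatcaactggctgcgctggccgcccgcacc
btsz: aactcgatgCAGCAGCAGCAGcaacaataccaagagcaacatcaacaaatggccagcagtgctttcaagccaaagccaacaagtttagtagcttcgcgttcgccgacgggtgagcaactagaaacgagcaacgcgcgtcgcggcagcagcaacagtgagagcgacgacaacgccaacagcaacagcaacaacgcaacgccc

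The last pair are members of high signal in a gene of the ecdysone response, with every CANNTG, the general E-box class, in capitals. Eip75B encodes the nuclear receptor E75. Its strongest member lay on a short coding exon with intron on both sides (chr3L:17992871-17993071, minus strand, 44.3% coding), and the exon codes for part of the zinc-finger DNA-binding domain. This window held no CANNTG. A second member of Eip75B (chr3L:17969667-17969867, minus strand) held 4.
Eip75B, strongest member: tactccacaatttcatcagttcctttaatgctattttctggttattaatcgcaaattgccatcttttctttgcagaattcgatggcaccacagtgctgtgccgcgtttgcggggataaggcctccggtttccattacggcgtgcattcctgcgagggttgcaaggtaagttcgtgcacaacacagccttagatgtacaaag
Eip75B, second member: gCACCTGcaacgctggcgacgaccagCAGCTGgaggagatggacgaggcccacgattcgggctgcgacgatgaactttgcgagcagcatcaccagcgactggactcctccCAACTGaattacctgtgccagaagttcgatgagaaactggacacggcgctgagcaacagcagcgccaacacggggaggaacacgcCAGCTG

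Replicate 1 stood apart from replicates 2 and 3 on the X chromosome, and this touches all results that use its list. In the list of each replicate, peaks that overlapped no thresholded peak and had a coding summit were taken as the coding sub-threshold peaks of that replicate. They are not the same set as the members. Replicates 1, 2 and 3 listed 2293, 1976 and 1006 of them, while peaks of these lists overlapped 439, 618 and 516 members. Of the coding sub-threshold peaks, 94 of 2293 lay on X in replicate 1, which is 4.10% (3.33 to 4.99%). The shares were 21.5% in replicate 2 and 21.97% in replicate 3, beside 17.2% of all coding sequence. Replicate 1 was also low among its other sub-threshold peaks, with 10.4% on X against 23.1% and 22.6% in replicates 2 and 3. Over peaks that overlapped a thresholded peak the 3 replicates were close, at 18.6%, 19.9% and 19.8%. The cause of this was not tested. Of the members, 154 lay on X, or 14.8% (12.7 to 17.1%), against 20.1% of other sub-threshold peaks. Replicate 1 overlapped 24.7% of the members on X and 45.1% of those on the autosomes. Replicate 2 overlapped 72.1% on X and 57.0% on the autosomes, and replicate 3 overlapped 51.9% and 49.0%. Without replicate 1, the differences over replicates described below were 6.14 percentage points for the coding share, −15.8 for replicate overlap, 14.9 for GC content and 0.633 for the E-box, all with the same sign as over 3 replicates.

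**Figure D1:**
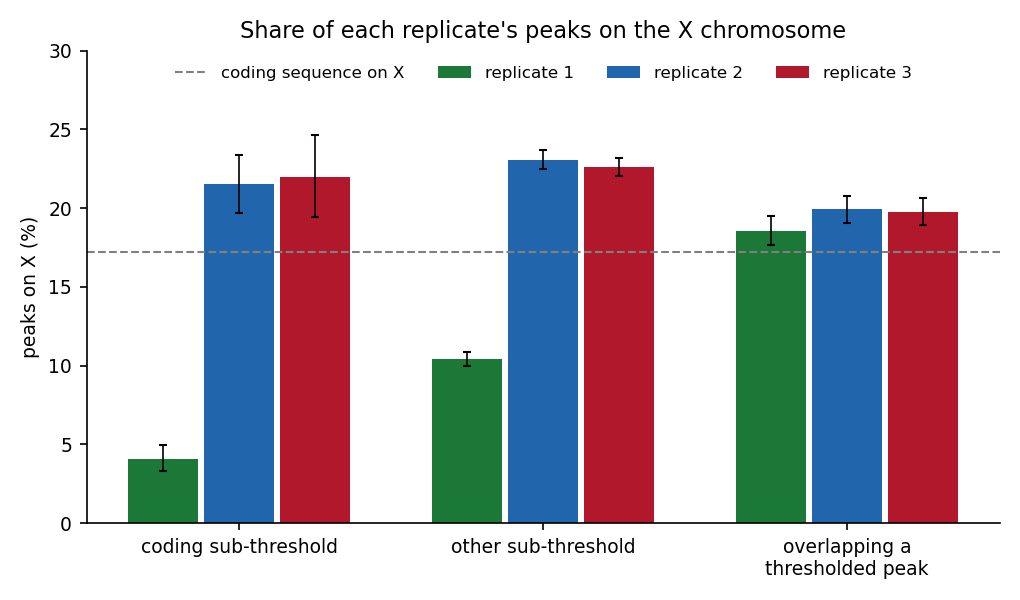
Share of peaks on X in each replicate list (percent), for coding sub-threshold peaks, other sub-threshold peaks and peaks that overlap a thresholded peak. Bars are shares, error bars are exact 95% intervals and the dashed line is the share of coding sequence on X. Replicate 1 has 4.10% of its coding sub-threshold peaks on X, against 21.5% and 21.97% in replicates 2 and 3.

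The members were selected on pooled signal, since the thresholded list was exactly the pooled peaks of highest signal, so their weakness is a description. Their signal ran from 24.0 to 109, with quartiles of 26.7, 30.3 and 37.1. Other sub-threshold peaks had quartiles of 29.8, 39.5 and 58.9, and the lowest thresholded peak had 110.31. The members were thus concentrated near the bottom of the list, with 73.5% in the weakest of 3 equal parts of the list against 43.6% of other sub-threshold peaks. A −log10 q of at least 2 was reached by 28 members (2.68%), against 16.3% of other sub-threshold peaks. All member peaks were 410 bp wide.

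At the threshold itself, the members with the highest signal lay in CG18011 with 109.25 (pooled rank 7319), CG3919 with 105.2 and CG15531 with 101.7. Just above it, the thresholded peaks of lowest signal with a coding summit lay in pst with 110.31 (pooled rank 7227), CG10962 with 110.5 and bip1 with 111.1. Only 35 thresholded peaks (0.484%) had a coding summit at all, and 7 of them lay over 1 kb from a transcript start.

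Coding summits became more frequent as signal fell, in the pooled list and in each replicate. Among the 3000 strongest pooled peaks 0.30% had a coding summit, and among the weakest 2484 the share was 9.46% (8.34 to 10.7%). In replicate 1 the shares of the strongest and weakest 3000 were 0.367% and 12.5%, in replicate 2 0.433% and 16.3%, and in replicate 3 0.20% and 8.19% over the weakest 2967. The rise went from bin to bin in all lists up to the last bin, which was slightly lower than the one before it in replicate 1 (13.1% there) and in replicate 3 (8.3% there). Replicate 1 departed from the others by an early step, with 6.2% at ranks 9001 to 12000 against 2.73% in replicate 2 and 1.3% in replicate 3. In no bin of any list did the share reach the 17.1% of the arms that is coding sequence, although the interval of the weakest bin of replicate 2 ran up to 17.7%.

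**Figure D2:**
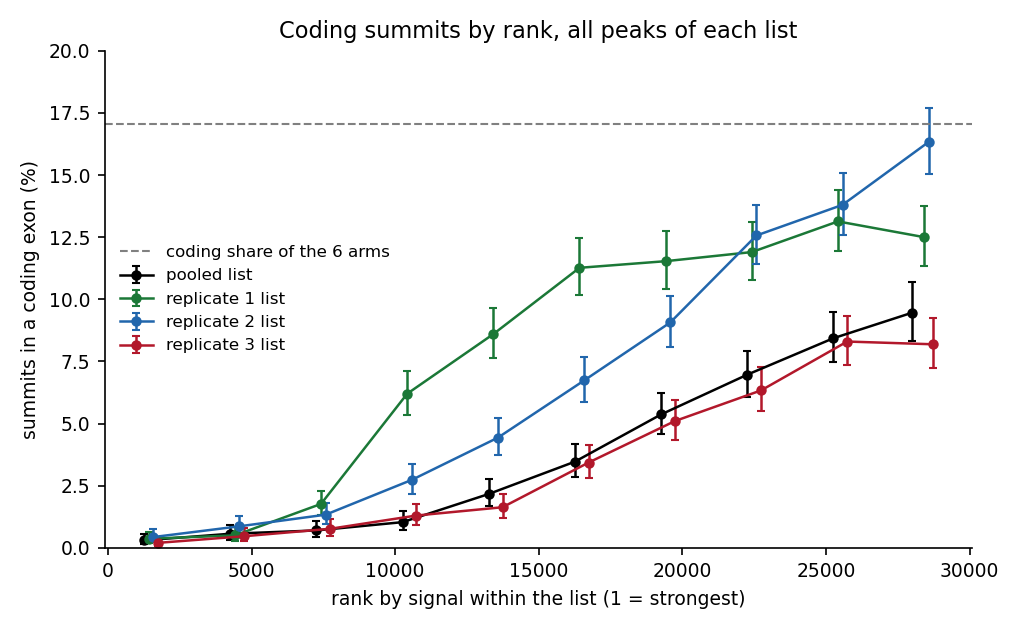
Share of summits in a coding exon (percent) by rank of signal, in bins of 3000 peaks, for the pooled list and the 3 replicate lists. Error bars are exact 95% intervals and the dashed line is the 17.1% of the 6 arms that is coding. Points within a bin are shifted sideways for legibility. All curves climb from bin to bin, except for a last bin slightly under the one before it in replicates 1 and 3, and stay below the line.

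Within each replicate list the coding share was 10.1%, 9.22% and 4.66% in replicates 1, 2 and 3 over peaks that overlapped no thresholded peak, against 0.555%, 0.851% and 0.75% over peaks that overlapped one. The difference was 7.26 ± 2.95 percentage points (SD, n = 3) and had the same sign in 3 of 3 replicates. The two-sided exact sign-flip permutation test gave p = 0.25, the smallest that 3 replicates allow, and an adjusted p of 0.35 (Benjamini-Hochberg) over the 7 such differences computed here. No difference over 3 replicates could therefore pass 0.05. The replicate lists come from the same reads as the pooled list that chose the members. Overlap with a thresholded peak and a coding summit are also the 2 criteria of that choice. The difference is therefore a description, and its test adds no independent evidence. For summits over 1 kb from a start the difference was 4.26 percentage points.

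Members recurred less often in the replicate lists than other sub-threshold peaks did. They were overlapped by a peak of replicates 1, 2 and 3 in 42.1%, 59.3% and 49.5% of cases, against 52.5%, 68.0% and 72.3% for other sub-threshold peaks. The difference was −14.0 ± 7.69 percentage points (SD, n = 3), lower in 3 of 3 replicates, with exact permutation p = 0.25 and adjusted p = 0.35. Of the 1043 members, 117 (11.2%) were overlapped in all 3 replicates, 389 in 2, 444 in 1 and 93 (8.92%) in none. Among other sub-threshold peaks 28.1% were overlapped in all 3 and 4.51% in none. The pooled reads can give a peak where no single replicate list holds one.

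Members were weaker than other sub-threshold peaks, so overlap was also compared within bands of pooled rank. The strongest band, down to rank 10000, held only 19 members, of which replicate 1 overlapped 73.7% and replicates 2 and 3 all, against 77.1%, 95.2% and 96.0% of other sub-threshold peaks in replicates 1, 2 and 3. Among ranks 10001 to 15000, with 84 members, replicate 1 overlapped 57.1% and 63.2%, replicate 2 overlapped 88.1% and 87.3% and replicate 3 overlapped 84.5% and 90.6%. Among pooled ranks 15001 to 20000 replicate 1 overlapped 51.3% of members and 49.2% of other sub-threshold peaks, and replicate 2 overlapped 74.4% and 70.1%. Replicate 3 overlapped 63.8% of members and 75.9% of the others there. Among ranks 20001 to 25000 replicate 1 overlapped 36.2% and 43.4%, replicate 2 overlapped 56.3% and 54.4% and replicate 3 overlapped 53.3% and 59.1%. Among ranks 25001 to 29484 the shares were 37.8% and 38.5% in replicate 1, 46.4% and 41.5% in replicate 2, and 29.7% and 46.9% in replicate 3. The order of members and others within bands thus differed between replicates. In replicate 2 members were overlapped more often than the others in all bands, unlike in the comparison without bands. In replicate 3 members were overlapped less often than the others in all bands but the strongest. In replicate 1 they were overlapped less often in all bands but ranks 15001 to 20000. These differences within bands were not tested.

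Members found in more replicates were stronger, with median pooled signals of 26.4, 28.4, 33.0 and 44.9 for members overlapped in 0, 1, 2 and 3 replicates. The pooled signal contains the reads of the replicates, so this trend is partly built in. The order of members by signal was only weakly shared between replicates. Spearman's rho was 0.22 over the 218 members overlapped in replicates 1 and 2, 0.158 over the 174 in replicates 1 and 3, and 0.34 over the 348 in replicates 2 and 3. Some of these members share a replicate peak.

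To compare single members between replicates, the signal of the overlapping replicate peak was divided by the median signal of that replicate's list, giving its relative signal. Since 1 bp of overlap sufficed, the summit of the replicate peak could lie outside the 201 bp window of the member. By this relative signal the strongest member, 48 bp from a start in CG18011 (summit chr2R:10142386), reached 2.54, 1.40 and 2.04 in replicates 1, 2 and 3, a mean of 1.99 ± 0.572 (SD, n = 3). The member in CG15531 reached 1.47, 1.63 and 1.98. The strongest member of sgg, which encodes the GSK3 kinase Shaggy that phosphorylates Timeless in the clock, reached 1.501, 2.03 and 1.59 (mean 1.71 ± 0.286). All 3 were above the median of each list. The member in HisRS, the histidyl-tRNA synthetase gene, reached 1.28, 1.77 and 1.80, and that in plu, which regulates the rapid DNA replication cycles of the early embryo, reached 1.21, 1.46 and 1.81. These 5 were the members with the best lowest rank over the replicates.

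Other strong members were uneven. In scrib, which encodes a scaffold of epithelial polarity, relative signal was 2.54 in replicate 1, 1.67 in replicate 2 and 0.935 in replicate 3. The members in cact, the IκB gene of the Toll pathway, in GstO3, an omega-class glutathione S-transferase gene, and in CG7272 had no overlapping peak in replicate 1, although their pooled signals of 96.3, 91.0 and 90.5 placed them among the 10 strongest. In cact the values were 1.47 in replicate 2 and 2.71 in replicate 3. The strongest member of btsz (pooled signal 86.3) reached 1.58, 2.03 and 0.722.

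**Figure D3:**
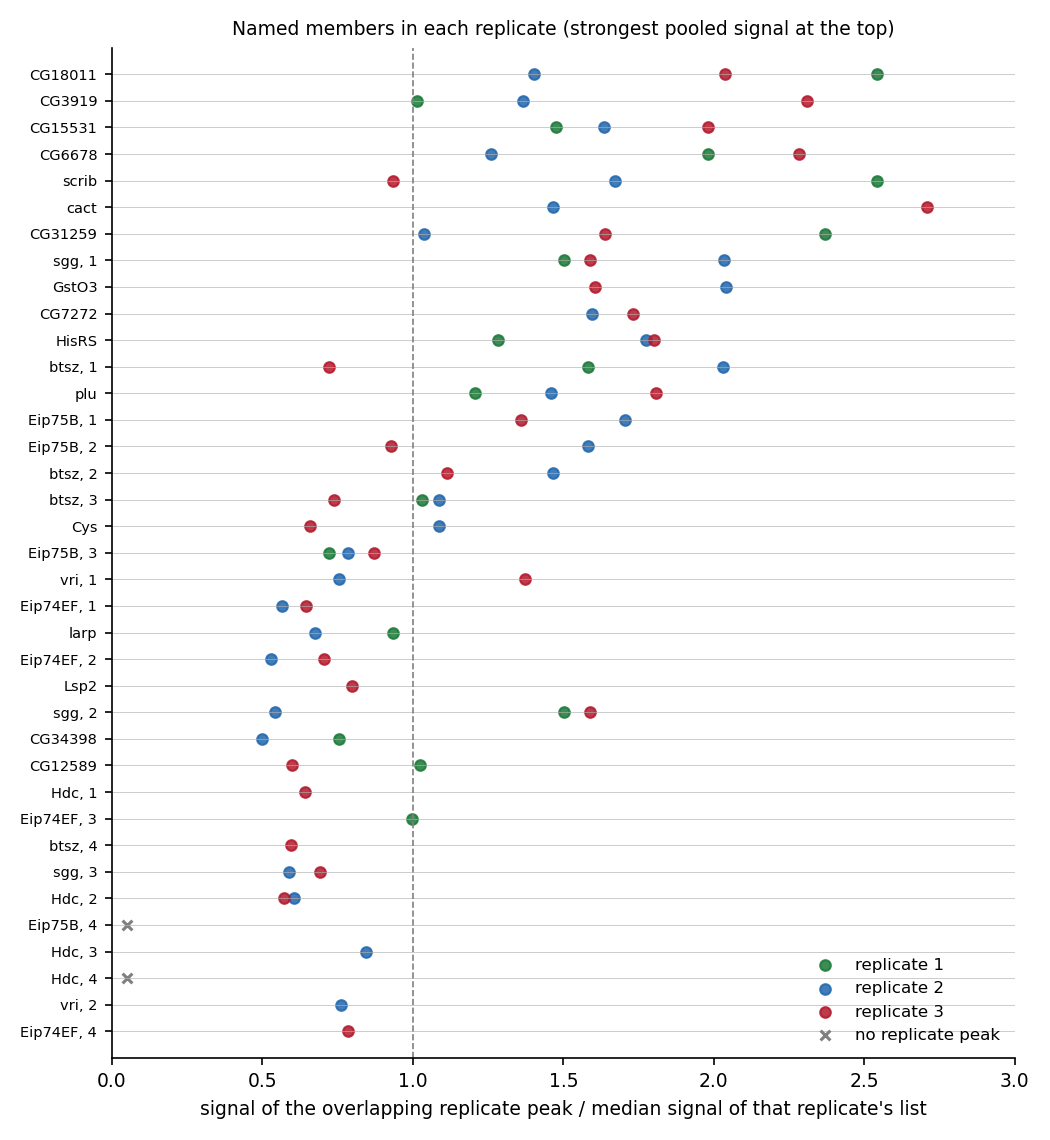
Relative signal of named members in each replicate, as the signal of the overlapping replicate peak divided by the median signal of that list (dashed line at 1). Members run from the strongest pooled signal at the top, and a gene with several members has them numbered by signal. The upper members lie mostly above 1, the lower ones mostly below it, and crosses mark members with no overlapping replicate peak.

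Members sat nearer to transcript starts than coding sequence as a whole. Of the members, 46.8% (43.7 to 49.9%) had a protein-coding transcript start at most 1 kb away, against 36.1% of all coding positions. The ratio was greatest close in, with 3.74% of members and 1.46% of coding positions within 100 bp, and 8.72% and 5.30% between 100 and 250 bp. Between 2000 and 5000 bp the order was the other way, at 17.3% and 24.0%. In the replicate lists the share within 1 kb was 35.5%, 51.4% and 53.5% in replicates 1, 2 and 3, a difference from coding positions of 10.7 ± 9.85 percentage points (SD, n = 3) that was positive in 2 of 3 replicates (exact permutation p = 0.5, adjusted p = 0.583). Without replicate 1 the difference was 16.4 percentage points.

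The same lean showed along the coding sequence. For 998 members the summit lay in the transcript with the longest coding sequence of the gene. Of these, 29.96% (27.1 to 32.9%) were in the first of 5 equal parts of that sequence, against 20.03% of coding positions, and 15.4% were in the middle one. The first 300 coding bases held 32.9% of members and 18.4% of coding positions. First coding exons of several held 22.3% and 14.2%, and internal exons 38.0% and 50.7%. Members favoured short exons, with 24.7% against 18.3% in exons of up to 250 bp and 6.31% against 14.5% in exons over 2000 bp. Codon position made no visible difference, at 33.7%, 33.8% and 32.6% for positions 1, 2 and 3 of the codon.

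**Figure D4:**
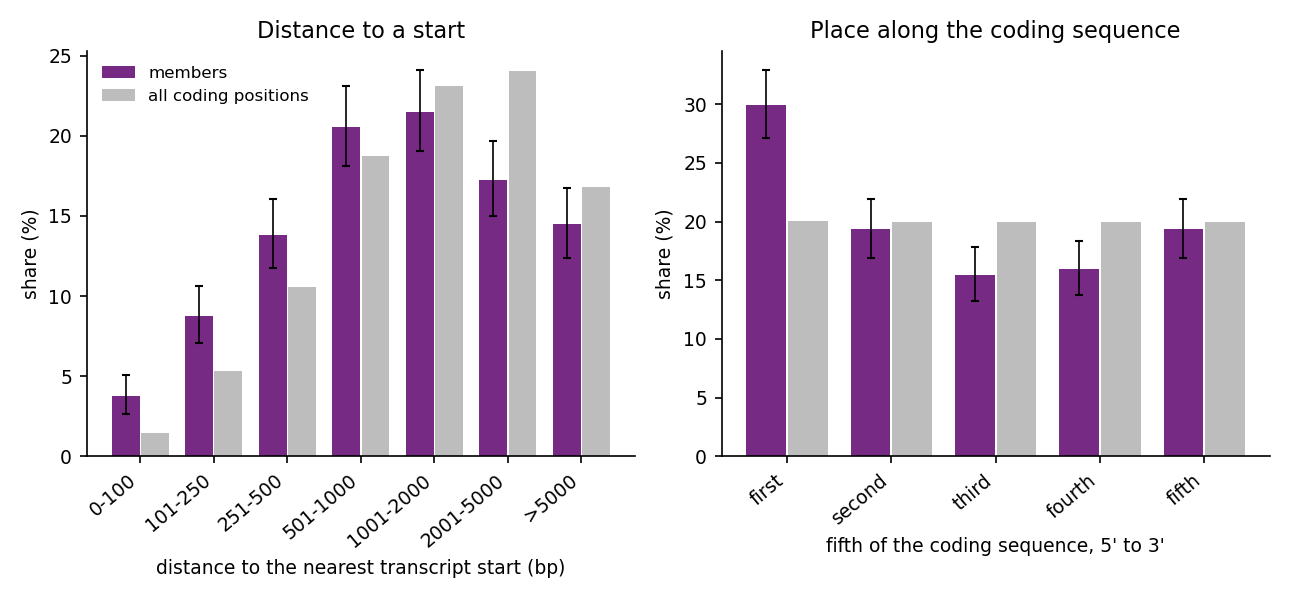
Share of members and of all coding positions (percent) by distance to the nearest protein-coding transcript start, left, and by part of the coding sequence in 5 equal steps from 5′ to 3′, right. Error bars on the members are exact 95% intervals. Members exceed coding positions in each bin up to 500 bp from a start and in the first of the 5 parts.

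Members also lay near thresholded peaks more often than coding sequence did. A thresholded summit lay within 2 kb of 27.6% (24.9 to 30.4%) of members, against 17.5% of coding positions, while the median distance was 4100 bp. A gene is called bound here if one of its starts had a thresholded summit at most 1 kb away. The host gene was bound for 43.3% of members, against 33.9% of coding positions. For members over 1 kb from any start the figures were 55.0% (50.7 to 59.1%) and 37.8%.

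Members were GC-rich. In the replicate lists GC content within 100 bp of the summit averaged 53.6%, 53.2% and 53.0% over coding sub-threshold peaks of replicates 1, 2 and 3, against 39.8%, 40.1% and 36.2% over other sub-threshold peaks. The difference was 14.5 ± 1.97 percentage points (SD, n = 3), higher in 3 of 3 replicates, with exact permutation p = 0.25 and adjusted p = 0.35. Coding sequence is itself rich in GC, with a mean of 51.6% over all coding positions, and against that the difference was 1.61 ± 0.309 percentage points, again in 3 of 3 replicates and with the same p. Among pooled members the mean was 54.3%. Those over 1 kb from a start had 55.9% against 51.8% for such coding positions, and those within 1 kb had 52.4% against 51.3%.

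The Clock and Cycle E-box was not more frequent in members than in coding sequence. Both strands of each window were searched. CACGTG was present in 26 of 1043 members, or 2.49% (1.63 to 3.63%), against 2.99% of all coding positions, 1.90% of other sub-threshold peaks and 1.63% of thresholded peaks. In the replicate lists it was present in 3.62%, 3.04% and 2.29% of coding sub-threshold peaks, against 2.42%, 2.19% and 1.87% of other sub-threshold peaks. That difference was 0.82 ± 0.392 percentage points (SD, n = 3; exact permutation p = 0.25, adjusted p = 0.35). Against all coding positions it was −0.0085 ± 0.668 percentage points, with 1 replicate below and 2 above (exact permutation p = 1). Members with CACGTG were weak: the 5 strongest lay in Cys, a cystatin-type protease inhibitor gene, with a signal of 47.1, in larp with 37.7, in Lsp2 with 35.7, in CG34398 with 34.5 and in CG12589 with 33.6. The larp member shown above had a relative signal of 0.935 and 0.674 in replicates 1 and 2 and no peak in replicate 3, and the Lsp2 member had 0.797 in replicate 3 only.

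Of the 18 motifs searched, all but GTGCAC and CGCGCG had a share in members closer to that of coding positions than to that of other sub-threshold peaks. GTGCAC was in 6.52% of members, 4.77% of coding positions and 6.05% of other sub-threshold peaks. CANNTG occurred 1.18 times per member window, 1.14 times per window centred on a coding position and 0.997 times per other sub-threshold window. Of its forms, CACCTG was in 17.9% of members against 15.6% of coding positions, and CAGCTG in 16.6% against 14.1%. TATCGATA, the site of the boundary and promoter factors DREF and BEAF-32, was in 3 members (0.288%) against 0.196% of coding positions, 1.79% of other sub-threshold peaks and 3.32% of thresholded peaks. GAGAGA, which GAGA factor binds, was in 4.60% of members, 4.76% of coding positions and 8.86% of other sub-threshold peaks. A pair of motifs served as controls for composition. CGCGCG was in 2.78% of members (1.87 to 3.97%), 1.56% of coding positions and 1.60% of other sub-threshold peaks, and AAAAAA was in 7.57% of members, 9.02% of coding positions and 44.5% of other sub-threshold peaks.

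The trinucleotide repeat was more frequent in members than in coding sequence, by a ratio of 1.99, against 1.78 for the GC-only control CGCGCG. CAGCAGCAG was within 100 bp of the summit in 97 members, or 9.30% (7.61 to 11.2%), against 4.67% of coding positions, 1.26% of other sub-threshold peaks and 0.65% of thresholded peaks. Over 1 kb from a start it was in 12.6% of members and 5.52% of coding positions. All replicate lists gave shares above that of coding positions, at 6.76%, 7.39% and 6.96%, though below that of the pooled members. The control CGCGCG was likewise above its share of coding positions (1.56%) in all replicate lists, at 2.22%, 2.68% and 1.89%. The 97 members lay in 94 genes, 70 of them over 1 kb from a start, and had a mean GC content of 58.9% against 53.8% for members without the repeat. Their median signal was 31.4, against 30.2. Among the strongest was the member in corto, with 69.1. In the corto window shown above, relative signal was 1.66, 1.05 and 1.36 in replicates 1, 2 and 3, and in that of btsz it was 1.03, 1.09 and 0.738. The part of GC content in the share with the repeat was not tested. The palindrome GGCGCC was likewise in 10.4% of members against 6.86% of coding positions.

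The members were spread thinly over genes. Of 13945 protein-coding genes, 930 (6.67%) had at least 1 member, 838 of them exactly 1, and 92 (0.66%) had 2 or more. No member lay in coding exons of more than 1 gene. Per Mb of coding sequence there were 45.7 members, from 36.3 on 2L and 39.2 on X to 56.7 on 3L. Of the genes with a member 40.4% were bound at a start, and of the 92 with 2 or more 60 (65.2%, 54.6 to 74.9%) were, against 28.6% of all genes. The genes with 4 members were btsz, Eip75B, Eip74EF and Hdc, the gene of histidine decarboxylase, which makes the photoreceptor transmitter histamine. Those with 3 included sgg, Egfr, the gene of the epidermal growth factor receptor, lola, which encodes BTB zinc-finger factors, and Fbp1. The 4 members of btsz had signals from 30.6 to 86.3, and those of Hdc, on a coding sequence of 2554 bp, from 25.3 to 33.4. No member of btsz or sgg had a summit coding in every spanning transcript and outside exons of other genes. Eip75B, Eip74EF and Hdc each had members that met this rule and members that did not. Coding length had a median of 1620 bp in genes with a member and 1185 bp in all genes. The shares bound at a start were not matched for coding length or number of starts. In some genes with 2 or more members, neighbouring members overlapped the same replicate peak. Among members over 1 kb from a start the number of host genes was 494. Without replicate 1, 2 or 3 it was 311, 158 and 200, counting at any distance the members overlapped in both of the remaining replicates.

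Among 19 lists of genes, that of the ecdysone response held members most densely by its point estimate. Of its 21 genes 11 had a member (52.4%, 29.8 to 74.3%), against 6.67% of all genes, and they held 21 members on 60.1 kb of coding sequence. That is 349 members per Mb (exact Poisson interval 216 to 534), against 45.7 over all genes, a ratio of 7.65. The list was chosen with earlier results of these data known, and 11 of its 21 genes were bound at a start, against 28.6% of all genes, so the density is a description with no test. In the replicate lists the same ratio, for coding sub-threshold peaks, was 1.82, 5.19 and 6.04 in replicates 1, 2 and 3. This ratio was above 1 in each and lowest in replicate 1, from 11, 27 and 16 listed peaks in replicates 1, 2 and 3. No interval was computed for it, so whether the 1.82 of replicate 1 exceeds 1 beyond counting error was not determined. Among the 348 members overlapped in both replicates 2 and 3, that is without replicate 1, the ratio was 12.003, from 11 members in 7 of the listed genes. Of the 21 members, 17 lay over 1 kb from a start and 2 were overlapped in all 3 replicates. Among all 1043 members these counts were 555 and 117.

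By number of members, a pair of early genes of the cascade led this list. Eip75B had 4 members with signals from 29.0 to 66.9, on 6360 bp of coding sequence and with 13 thresholded summits elsewhere in the gene. Its strongest member, on the zinc-finger exon shown above, lay 640 bp from a thresholded summit. It had a relative signal of 1.71 and 1.36 in replicates 2 and 3 and no peak in replicate 1. The replicate 3 peak had its summit 304 bp from that of the member, outside the window shown. The second member had 1.58 and 0.927 in the same replicates, with the replicate 3 summit 125 bp away. The member of signal 42.6 was overlapped in all 3, at 0.721, 0.784 and 0.872, with a replicate 3 summit offset of −277 bp. The weakest was overlapped in none. Eip74EF, the gene of an ETS-domain factor, had 4 members with signals from 24.8 to 38.4. The strongest of these had 0.564 and 0.646 in replicates 2 and 3.

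The other listed genes had 1 or 2 members each, or none. EcR, the ecdysone receptor gene, had 2 members of 30.5 and 28.2, and Hr3, a nuclear receptor gene induced by ecdysone, had 2 of 26.8 and 25.3. The cell death gene hid had 2, of 40.2 and 28.3. Single members lay in Blimp-1, which encodes a zinc-finger repressor (41.4), Eip93F, which encodes the helix-turn-helix factor E93 (36.6), MsrA, a methionine sulfoxide reductase gene (35.8), and the nuclear receptor genes Hr4 (28.3) and ftz-f1 (26.5). The 10 listed genes without a member included usp, which encodes the partner of EcR, the caspase genes Dronc and Drice, and the death genes rpr and grim, whose coding sequences are short at 195 and 414 bp.

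The lists of salivary glue and late puff genes and of fat body storage and yolk genes held fewer members. Whether these genes are expressed at this stage was not measured. Of 23 salivary glue and late puff genes, 4 had a member (17.4%, 4.95 to 38.8%). This interval includes the 6.67% of all genes, whose rate was 45.7 members per Mb. The 4 genes were Eig71Eb with a signal of 47.6, Eig71Ea with 40.6, Eig71Ek with 28.6 and Eig71Ec with 24.2. Their coding sequences are so short that 4 members gave 300.7 per Mb (81.9 to 769.9), and no glue protein gene of the Sgs type had one. Of 14 fat body storage and yolk genes, 5 had a member (35.7%, 12.8 to 64.9%), with 8 members and 169 per Mb (72.9 to 332.6). Fbp1, the receptor that takes storage proteins back into the fat body, had 3, with signals from 31.0 to 49.1 and peaks in coding exons in all replicate lists. The storage protein gene Lsp1gamma had 2, of 49.0 and 24.4. The yolk protein genes Yp1, Yp2 and Yp3 had none.

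**Figure D5:**
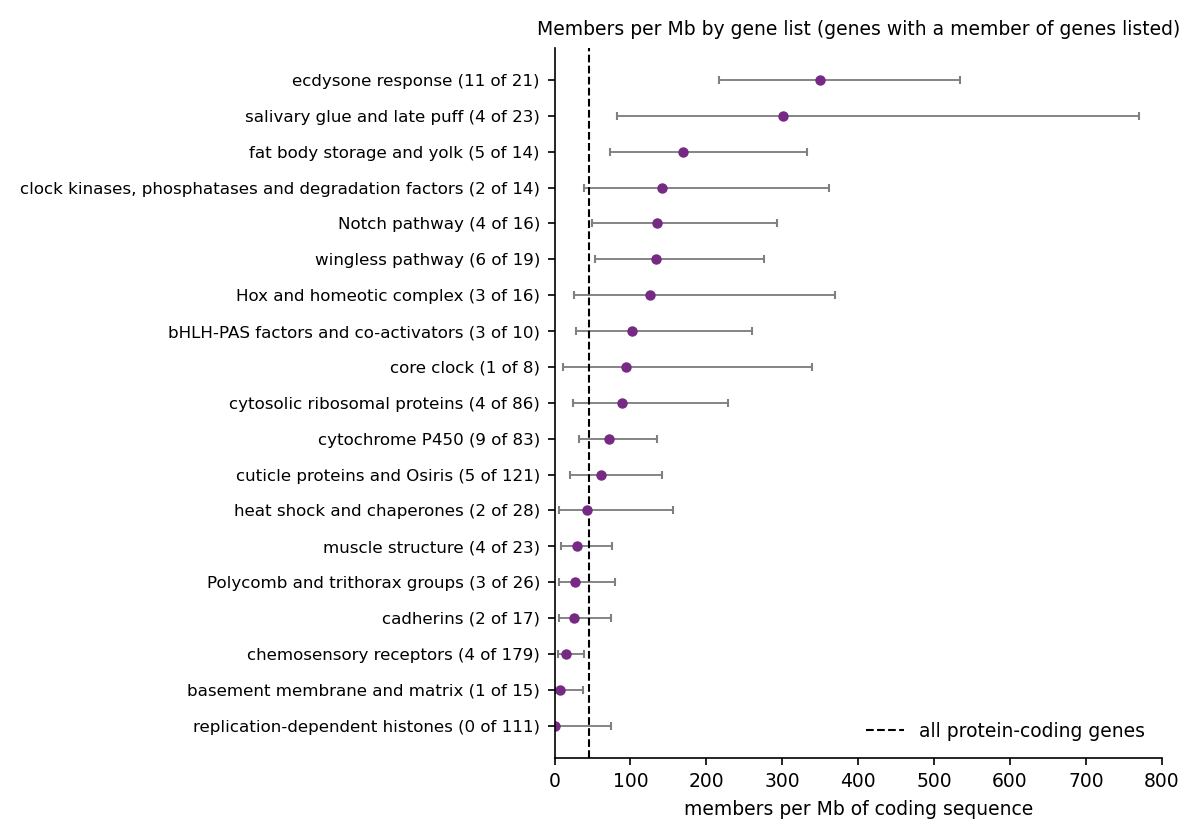
Members per Mb of coding sequence for 19 gene lists, with exact Poisson 95% intervals and, in brackets, the genes with a member of the genes listed. The dashed line is the 45.7 members per Mb of all protein-coding genes. The ecdysone response list is highest at 349 per Mb, and the 111 histone genes had no member.

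The clock lists were short, and the intervals on their rates included the rate of all genes, 45.7 members per Mb. Of the 8 core clock genes 1, vri, had members (12.5%, 0.316 to 52.7%, against 6.67% of all genes), at 93.9 per Mb (11.4 to 339), and 3 of the 8 were bound at a start. The gene vri encodes Vrille, a bZIP repressor of Clock. Its 2 members had signals of 40.6 and 24.9. The stronger had a relative signal of 0.755 in replicate 2 and 1.37 in replicate 3, the latter from a peak with a summit offset of −176 bp. The weaker had 0.762 in replicate 2 alone, and neither had CACGTG in its window. No member lay in Clk, cyc, per, tim, Pdp1, cwo or cry, on 21.3 kb of coding sequence for the whole list. Of 14 clock kinases, phosphatases and degradation factors 2 had members (14.3%), at 141 per Mb (38.4 to 361). The gene sgg had 3 members with signals from 30.5 to 91.3 and jet, an F-box gene needed for light-driven loss of Timeless, had 1 of 35.5. The pair of stronger sgg members overlapped the same peak in replicate 1 and the same peak in replicate 3. Of 10 genes for bHLH-PAS factors and co-activators 3 had members (30%), at 102 per Mb (27.7 to 259.96). The CBP gene nej had 2 members (32.7 and 25.9), trh, needed for tracheal development, had 1 (32.7) and tai, which encodes a co-activator of EcR, had 1 (26.6).

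By their point estimates, 2 lists of developmental signalling genes also held more members per Mb than the 45.7 of all genes, of which 6.67% had a member. At a start 11 of the 16 Notch genes and 6 of the 19 wingless genes were bound, against 28.6% of all genes. Of 16 Notch pathway genes 4 had members (25%), at 135 per Mb (49.5 to 293.6). They were the ligand genes Delta, with 40.9 and 26.5, and Ser, with 24.5, the co-activator gene mam, with 39.8 and 37.1, and the protease gene kuz, with 26.5. Of 19 wingless pathway genes 6 had members (31.6%), at 134 per Mb (53.8 to 275.5). They were nkd, a feedback inhibitor gene with 2 members of 31.8 and 29.2, the receptor gene fz2, the ligand genes wg, Wnt2 and Wnt6, and lgs, which encodes the adaptor Legless. None of the 6 Notch and 7 wingless members was overlapped in all 3 replicates, beside 11.2% of all members. With so few members, none is close to that share.

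The remaining lists had intervals that reached the rate of all genes or lay below it. The intervals on rates were not adjusted for the 19 lists, and no list was tested against all genes. Of 83 cytochrome P450 genes 9 had a member (10.8%), the strongest in Cyp6v1 with 83.02, at 71.1 per Mb (32.5 to 134.9). Of 179 chemosensory receptor genes 4 had a member (2.23%), at 15.0 per Mb (4.08 to 38.4). Of 15 basement membrane and matrix genes, whose coding sequences are long, only dpy had a member, with 25.2. No member lay in the 111 replication-dependent histone genes, which allows a share of up to 3.27% if each gene is a separate draw. On their 49.8 kb of coding sequence the interval on the rate ran from 0 to 74.1 per Mb, which includes the 45.7 of all genes. Histone genes are near-identical copies, and how reads were placed among them is not given in the sources used here. Of the other lists in this range, members lay in 4 of 86 cytosolic ribosomal protein genes (4.65%, 89.4 per Mb). Cuticle protein and Osiris genes had members in 5 of 121 (4.13%, 60.8 per Mb). Heat shock and chaperone genes had them in 2 of 28 (7.14%, 43.1 per Mb), and cadherin genes in 2 of 17 (11.8%, 25.6 per Mb). Hox and homeotic complex genes had them in 3 of 16 (18.8%), at 126 per Mb (26.03 to 368.8). Polycomb and trithorax group genes had them in 3 of 26 (11.5%, 27.3 per Mb). For each of these lists the interval on the share included the 6.67% of all genes. The interval on the rate included the 45.7 per Mb of all genes. Muscle genes had 4 members in 23 genes at 29.4 per Mb (8.01 to 75.2). Among them bt, the gene of the giant sarcomere protein projectin, had 1 member of 56.9, while replicate 1 alone listed 8 coding sub-threshold peaks in it and 4 in Mhc, and replicates 2 and 3 listed 0 in both.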

How the data were processed

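ChIP-seq with an anti-GFP antibody was done on 3 biological replicates of 1 group. The deposited files are narrowPeak lists for dm6 and dm3, 1 per replicate, 1 pooled and 1 thresholded by IDR, per the texts deposited with them. The signal is the authors' deposited value for a peak against a control alignment, and it was compared only within a list or after division by that list's median. The −log10 q, too, was deposited by the authors. Which aligner and peak caller were used is not given in the sources used here. Lists for dm3 were not used here. The replicate lists held 30000, 30000 and 29999 peaks (32 of replicate 3 lay outside the 6 arms 2L, 2R, 3L, 3R, 4 and X and were left out). They hold no read counts, so the depth behind a value is unknown.

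Coordinates are dm6 (Release 6), sequence came from the RefSeq assembly of that release and gene models from Ensembl release 115 (build 6.54). The summit is the peak start plus the deposited offset. Overlap means at least 1 bp. Sequence was read within 100 bp of the summit, and 18 motifs were searched on both strands. Shares over all coding positions were computed over every base of the 22.8 Mb of coding sequence on the arms. Differences between 2 kinds of peak were taken in each replicate and tested with a two-sided exact sign-flip permutation test, with Benjamini-Hochberg adjustment over 7 differences. The calculations were tested on simulated data.

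The members, the gene lists and the motifs were chosen with earlier results of these data known. After values had been seen, 8 symbols in the lists were updated to current names, 3 entries were dropped (2 matched no gene and 1 did not belong to its list) and the histone pattern was narrowed. The update that added MsrA moved the ecdysone list by 1 gene with a member. The genes named were those of the 10 strongest members, the 5 genes with most members, the 5 strongest members with CACGTG, the 5 best over all 3 replicates, up to 3 members per list, all core clock genes and the 3 members just below the threshold, apart from some that are not reported here. Members of the repeat and further genes of the ecdysone, clock, fat body, Notch, wingless and muscle lists were named after their values were seen. Alternatives varied the gene models, distance to starts, the threshold, the overlap rule, the window and the replicates, and, after the data were seen, the arms and the ecdysone ratio. Computation used Python 3.11.15, numpy 2.4.6, pandas 2.3.3, scipy 1.17.1 and matplotlib 3.10.9.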

Additional observations from a re-analysis of the deposited data

How the results depend on the processing

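Of 45 alternative values, 40 kept the direction and stayed on the same side of the threshold or near the main value, 5 moved and 0 reversed. For differences over replicates the side could not change, because the permutation test gives no p under 0.25 with 3 replicates. For these differences the count shows only that the mean kept its sign, and says nothing about its size. The difference in coding share was 6.17 percentage points for summits coding in every transcript, 4.26 over 1 kb from a start, 6.46 with the 3613 strongest thresholded peaks as the threshold, 6.99 with an overlap of 50% of the peak and 7.54 on the autosomes, and leaving out each replicate in turn gave 6.14 to 8.94. The difference in replicate overlap was −14.0 in the main setting and −4.01 when only the strongest peaks of each replicate were kept. Leaving out a replicate gave −16.6 to −9.56. The GC difference ran from 11.7 to 16.2 over the windows tried and from 13.4 to 15.3 without a replicate. The E-box difference was 0.463 within 50 bp and 0.953 within 200 bp, and 0.633 to 1.02 without a replicate. The start share difference was 7.34 to 16.4 without a replicate, the highest without replicate 1. The values without replicate 2 and without replicate 3 average a negative difference in replicate 1 (−0.613) with a positive one. The number of genes with a member was 786 for summits coding in every transcript, 494 over 1 kb from a start and 158 to 311 when a replicate was left out and overlap in both others was required, a rule that by construction keeps fewer members. The ecdysone ratio was 8.65 and 8.48 under the first pair of these settings and 5.23 to 12.003 without a replicate, where the values without replicate 2 (6.55) and without replicate 3 (5.23) rest on 3 members in 3 genes each, against 21 in 11 over all members. The cause of its highest value, without replicate 1, was not tested. Differences between kinds of peak were paired within each replicate, and with 1 group there was no pairing of samples across groups. Depth is unknown, 3 replicates cannot give a p under 0.25, and the pooled and replicate lists share reads.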
